A study of Homo sapiens with 2 samples.

Results

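The regions described here are those carrying H3K4me3, a histone mark of active promoters, in 6 stretches of human chromosome 19 where genes for KRAB zinc finger proteins lie in clusters. They came from 2 deposited lists of enriched regions, 1 per genotype, from chromatin immunoprecipitation and sequencing (ChIP-seq) with an H3K4me3 antibody in HEC-1-B, an established human uterine adenocarcinoma line. One library was from wild-type cells and the other from cells labelled ZNF143KO, a knockout of the zinc finger transcription factor ZNF143. The labels give no further treatment for either library and do not say whether the knockout cells were 1 clone. The lists hold regions and no expression values, so the knockout label was not checked against the targeted gene.

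Regions entered by their position in set windows, in hg19 coordinates counted from 1. The windows were chosen with earlier results of these data known. The ZNF155 promoter position was named because the knockout list has no region there. The 6 windows are numbered along the chromosome: window 1 from 9.2 to 10.0 Mb, window 2 from 11.6 to 12.7 Mb, window 3 from 19.8 to 24.5 Mb, window 4 from 36.6 to 38.4 Mb, window 5 from 44.3 to 45 Mb and window 6 from 52.4 to 59.1 Mb. Together they cover 15.8 Mb. They held 315 of the 1380 wild-type regions on chromosome 19 and 303 of the 1402 knockout regions, out of 19782 and 19647 regions on all assembled chromosomes. The remaining 1065 wild-type and 1099 knockout regions of chromosome 19 serve as the comparison. The windows were drawn around gene clusters, not around each gene, so promoters of other gene families also lie in them, above all in window 6, and no region was assigned to a gene.

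KRAB zinc finger proteins bind DNA through arrays of zinc fingers, and the KRAB domain of many of them recruits the corepressor TRIM28 (KAP1), which brings in the H3K9 methyltransferase SETDB1. Many of them target transposable elements. Their genes multiplied by tandem duplication, which left long runs of related genes on chromosome 19. ZNF143 itself has no KRAB domain. It is an activator that binds near the start sites of many genes, and ACTACA followed after 2 bases by TCCCA is a core of its recognised binding sequence.

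Promoter sequences are shown for genes around ZNF155, because window 5, which holds the ZNF155 position, has the largest differences between the genotypes described below. Which of these genes lie inside window 5 was not checked. The genes are 20 KRAB zinc finger genes around ZNF155, the gene whose promoter was named with the choice of windows. In the RefSeq gene table of GRCh38.p14 these 20 genes follow each other with no other protein-coding gene between them: ZNF283, ZNF404, ZNF45, ZNF221, ZNF155, ZNF230, ZNF222, ZNF223, ZNF284, ZNF224, ZNF225, ZNF234, ZNF226, ZNF227, ZNF233, ZNF235, ZNF112, ZNF285, ZNF229 and ZNF180. RefSeq promoters of 300 bases, 250 before the start and 50 after it, matched 16 of the 20 symbols with 19 entries. ZNF155, ZNF221, ZNF223 and ZNF233 had none. Capitals mark ACTACA, 2 bases and TCCCA as found by a search of both strands. All positions in the next paragraph are GRCh38.p14 and cannot be set beside the hg19 positions of the H3K4me3 regions.

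Each stretch below holds the match and its neighbourhood before the start of its gene, 5′ to 3′ on the strand that reads ACTACA. Stretches of 8 of the 10 genes with a match are shown. ZNF112, which has several starts, and ZNF234, whose match is the closest to its start, also hold one and are not printed. The stretches are chr19:43827241-43827289 (plus strand) for ZNF283, chr19:43935286-43935334 (plus) for ZNF45, chr19:44002822-44002870 (minus) for ZNF230, chr19:44072076-44072124 (minus) for ZNF284, chr19:44094245-44094293 (minus) for ZNF224, chr19:44113302-44113350 (minus) for ZNF225, chr19:44305082-44305130 (plus) for ZNF235 and chr19:44500544-44500592 (plus) for ZNF180.
ZNF283: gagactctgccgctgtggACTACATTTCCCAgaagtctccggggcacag
ZNF45: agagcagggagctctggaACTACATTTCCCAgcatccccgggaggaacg
ZNF230: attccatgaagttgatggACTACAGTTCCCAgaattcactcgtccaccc
ZNF284: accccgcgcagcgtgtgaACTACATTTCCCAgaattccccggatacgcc
ZNF224: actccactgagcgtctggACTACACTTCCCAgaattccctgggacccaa
ZNF225: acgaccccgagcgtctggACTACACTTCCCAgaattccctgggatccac
ZNF235: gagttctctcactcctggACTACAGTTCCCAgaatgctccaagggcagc
ZNF180: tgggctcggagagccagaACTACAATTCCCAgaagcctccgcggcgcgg

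The long motif was present in 11 of the 19 listed promoter entries, or 57.9% (95% Clopper-Pearson interval 33.5 to 79.7%), and in 10 of the 16 genes. Among 288 entries of other ZNF genes of chromosome 19 it was present in 34, or 11.8%. Among all 35116 RefSeq promoters of the same length it was present in 477, or 1.36%. In the matched genes it lay 10 to 106 bases before the start. In 10 entries it read on the strand opposite to the gene, and ZNF283 was the 1 entry with the same orientation. The entries are not independent, because the genes arose from each other by duplication and ZNF112 and ZNF229 have several starts. The entries of ZNF229 overlap each other and hold no match.

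The short core ACTACA alone was in 14 of the 19 entries (73.7%), in 68 of the other 288 (23.6%) and in 2972 of all promoters (8.46%). TCCCA followed after 2 bases by ATGC, the other part of the ZNF143 sequence, was in 2 entries (10.5%) against 0.851% of all promoters. The shorter CCCA followed after 2 bases by ATGC, which contains every match of the former, was also in 2 (10.5%) against 1.73%. CCGGAAG, a sequence bound by ETS factors, was in 6 entries (31.6%), in 41.0% of the other ZNF entries of the chromosome and in 10.3% of all promoters. CGCGAGA and TCTCGCGA, which overlap each other when read on opposite strands, were in none of the 19 entries (interval 0 to 17.6% for each). Of all promoters 3.49% and 1.15% held them, so 19 entries are too few to show a lower share. The listed promoters had a median GC content of 55% and 16 CpG dinucleotides, against 61% and 21 in the other ZNF entries of chromosome 19. A match describes these letters in this window, and binding of ZNF143 was not measured.

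For the H3K4me3 regions, 4 values are used. The fold is the authors' column for enrichment at the region's summit over the local background. The −log10 q is their column for its adjusted p-value. The pileup is the whole number of fragments stacked at the summit, solved from their fold and p-value columns, and the background rate is the number of fragments that the peak caller assumed there. A percentile ranks a region within its own list over all assembled chromosomes. Pileups in the 2 lists ranged from 7 to 6209 in the wild type and from 11 to 14245 in the knockout. The lowest background rate, a measure of depth, was 1.40 fragments for the wild type and 3.25 for the knockout, whose library was the deeper. There was 1 library per genotype, no difference below has a replicate check, and no test between genotypes was made. The intervals given are at 95% and cover counting error only.

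H3K4me3 regions of the zinc finger windows stood out from their local background more than other regions of chromosome 19 did, in both genotypes. The median fold in the wild type was 15.3 in the windows and 11.8 in the rest of the chromosome, against 11.5 in the whole list. In the knockout it was 14.0 against 11.1, and 11.2 in the whole list. As percentiles, the window regions had a median of 73.9 (67.4 to 77.3) in the wild type against 52.1 (48.5 to 56.0) elsewhere on the chromosome. The knockout values were 68.5 (63.2 to 73.7) against 49.4 (45.5 to 52.9). These intervals treat neighbouring regions as independent of each other and are not a test.

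The upper 25% of the list by fold held 150 of the 315 wild-type window regions, or 47.6% (42.0 to 53.3%), against 29.5% (26.8 to 32.3%) of the other chromosome 19 regions. In the knockout it held 125 of 303, or 41.3% (35.7 to 47.0%), against 27.5%. The contrast was smaller in the upper 10%. There the wild-type shares were 17.8% and 13.1%, and the knockout shares 14.2% and 12.1%.

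Ranked by the height of the summit instead, the windows differed much less from the rest of the chromosome. The median pileup in the wild type was 269 fragments in the windows and 227 elsewhere, which are percentiles of 60.0 and 54.3. In the knockout it was 484 and 412 fragments, with percentiles of 59.5 and 54.0. The median percentile of the background rate was 51.0 in the wild-type windows against 53.8 elsewhere, and 52.7 against 54.8 in the knockout. The −log10 q lay between, with median percentiles of 63.7 against 53.5 in the wild type and 63.0 against 53.6 in the knockout. The high fold of the zinc finger windows thus went with slightly taller summits and slightly lower local background rates.

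**Figure D1:**
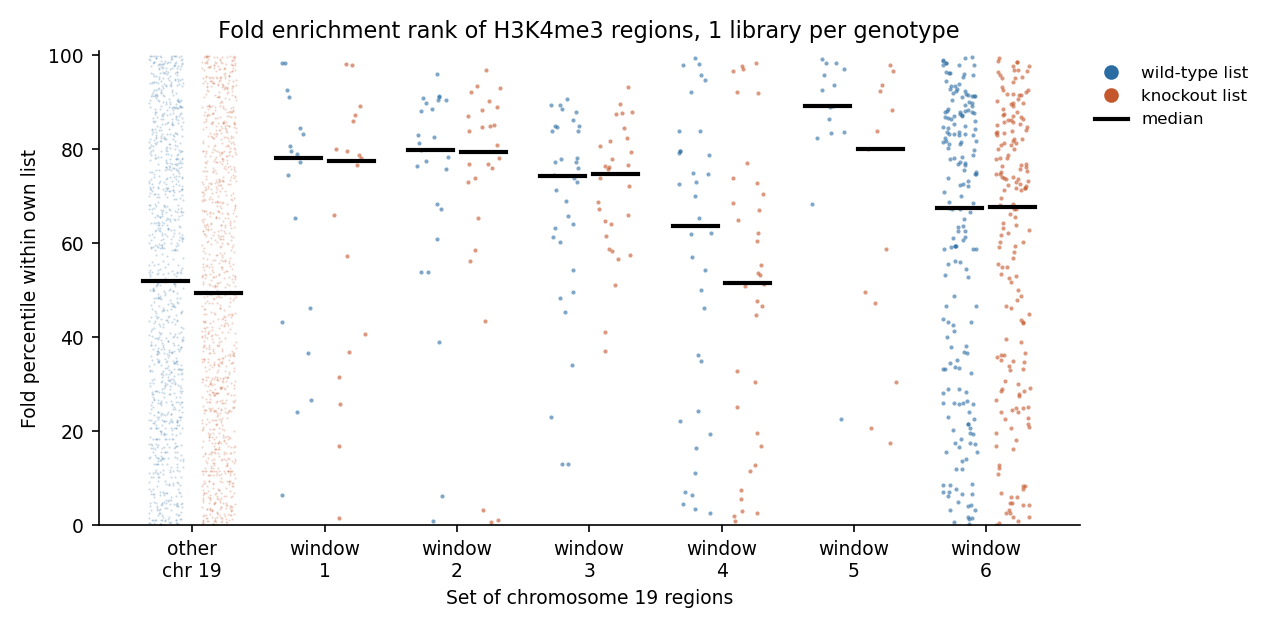
Fold percentile of H3K4me3 regions (y axis, percentile within the region's own list) for the regions of chromosome 19 outside the windows and for each of the 6 windows, with the wild-type and knockout lists side by side. In the wild type the medians of the windows lie from 63.8 in window 4 to 89.3 in window 5, all above the 52.1 of the other regions.

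All 6 windows had a higher median fold percentile than the rest of chromosome 19 in both lists, as the plot of fold percentiles by window shows. In the wild type the medians were 78.2, 79.8, 74.3, 63.8, 89.3 and 67.4 from window 1 to window 6. In the knockout they were 77.5, 79.5, 74.9, 51.5, 80.0 and 67.7. Windows 4 and 5 therefore had medians lower by 12.2 and 9.30 percentile points in the knockout, and the other 4 differed by less than 1 point. Window 4, at 51.5 in the knockout, was only just above the 49.4 of the other regions.

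Single regions reached folds near the top of each list. The highest in the wild-type windows was chr19:57106359-57107234 in window 6, where the fold was 29.7 and the pileup 469. In window 4 the region chr19:37288381-37289131 had 319 fragments and a fold of 28.0. The highest in the knockout windows was chr19:58089546-58090351 in window 6, where the fold was 26.1 and the pileup 1090. Window 3, the pericentromeric stretch with the widest spacing, had the lowest maximum of the 6, at 19.4 in wild-type and 19.7 in knockout cells. In windows 1, 2, 3 and 5 the regions of highest fold in the lists overlapped each other.

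Window 6 was not uniform along its length. In steps of 1 Mb the median wild-type fold percentile was 83.6 from 52.4 Mb, 72.6 from 53.4 Mb, 33.5 from 54.4 Mb, 46.6 from 55.4 Mb, 52.8 from 56.4 Mb, 87.6 from 57.4 Mb and 59.3 from 58.4 Mb to the window's end. The stretch from 54.4 to 55.4 Mb held 19 regions and that from 55.4 to 56.4 Mb held 51. The leukocyte receptor genes, which are not zinc finger genes, lie in the central part of the window. The steps with the highest medians were thus the first and the one from 57.4 Mb, and the lowest was the one from 54.4 Mb.

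The windows differed from each other in how densely they carried H3K4me3 regions. The wild-type list had 18, 25, 34, 36, 15 and 187 regions in windows 1 to 6, and the knockout list had 18, 26, 30, 37, 13 and 179. Per Mb these were 22.5, 22.7, 7.23, 20.0, 21.4 and 27.9 in the wild type, and 22.5, 23.6, 6.38, 20.6, 18.6 and 26.7 in the knockout. Window 3 thus had the sparsest regions, with a median gap of 68.8 kb between neighbouring summits in the wild type. The median gap was 16.5 kb in window 1, 37.9 kb in window 2, 45.4 kb in window 4, 30.5 kb in window 5 and 19.7 kb in window 6. Over all windows it was 25.0 kb against 16.6 kb in the rest of the chromosome, and gaps under 2 kb made up 15.9% (49 of 309) against 21.9%.

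Regions of the windows were also somewhat wider than others of the chromosome. The median width in the wild type was 876 bp (839 to 914) in the windows, 791 bp (750 to 829) in the rest of chromosome 19 and 883 bp in the whole list. In the knockout it was 1025 bp (972 to 1077), 878 bp (842 to 919) and 1003 bp. So the window regions were wider than those of the rest of their own chromosome and close to the whole list. In the wild type the difference lay at the narrow end. The lower quartile there was 618.5 bp in the windows and 451 bp elsewhere, whereas the upper quartiles were 1118 and 1126 bp. In the knockout the lower quartiles were 806.5 and 493 bp. Its upper quartiles were 1281.5 and 1233.5 bp, so there the windows were somewhat wider at that end too. Regions under 300 bp made up 8.89% of the wild-type window regions against 13.4%, and 7.59% against 11.6% in the knockout. Merging regions within 1 kb of each other turned the difference in median width to -92 bp in the wild type and -38.5 bp in the knockout.

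Wide regions were few. In the wild-type windows 2 regions exceeded 2 kb, the widest being chr19:54371147-54373461 in window 6, of 2315 bp at a fold of 5.74. The knockout windows had 7 such regions. In the 270 pairs described below the knockout region was the wider in 237, or 87.8%, with a median width ratio of 1.09. The same was true of 83.9% of the 928 pairs elsewhere on the chromosome, with a median ratio of 1.07.

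Nearly all window regions were present in both lists. Regions overlapping by 1 bp or more between the lists were counted as shared. In the wild-type windows 304 of 315 were shared, or 96.5% (93.8 to 98.2%), against 97.1% (95.9 to 98.0%) elsewhere on chromosome 19. The 11 unshared regions, 3.49%, stand against 5.53% unshared in the whole wild-type list. In the knockout windows 287 of 303 were shared, or 94.7% (91.6 to 97.0%), against 90.5% (88.7 to 92.2%). Its 16 unshared regions, 5.28%, stand against 9.67% in the whole knockout list. The wild-type difference changed sign under several settings given in the closing section.

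**Figure D2:**
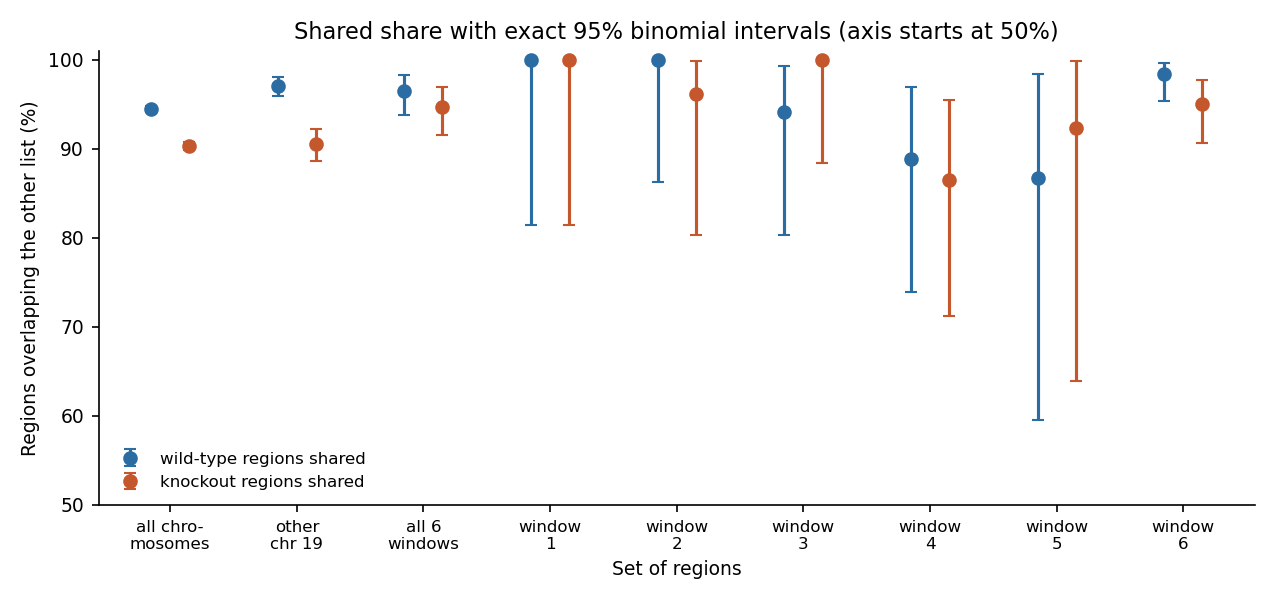
Share of regions that overlap the other list by at least 1 bp (y axis, percent, starting at 50%) for all assembled chromosomes, for the other chromosome 19 regions, for all windows and for each window. Points are shares and bars are exact 95% binomial intervals. Window 4 has a wild-type share of 88.9% and a knockout share of 86.5%. The 86.7% of window 5 in the wild type counts the region at the ZNF155 position, and without that region the share is 92.9%.

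By count, unshared regions fell mostly in windows 4 and 6, with 2 strong ones in window 5. Window 6 held the most regions of any window, and its shares were high. In the wild type 184 of its 187 regions were shared, or 98.4%, against 94.5% of the whole list. In the knockout 170 of its 179 were shared, or 94.97%, against 90.3%. In the wild type windows 1 to 6 had 0, 0, 2, 4, 2 and 3 unshared regions, and in the knockout 0, 1, 0, 5, 1 and 9. Window 1 had 0 unshared of 18 regions in each list, which allows a share of up to 16.7% by a limit of 3 counts and 18.5% by the exact interval. By share, window 4 had the lowest knockout value, 86.5%. In the wild type it had 32 of 36 shared, or 88.9%. The wild-type share of window 5 was 86.7%, but 1 of its 2 unshared regions is that at the ZNF155 position, which was named for its missing knockout region. Without it 13 of 14 were shared, or 92.9%. The 4 unshared wild-type regions of window 4 lay within a short stretch, from chr19:36770252-36770450 to chr19:36800524-36800687, with pileups of 15 to 20 fragments. In the same neighbourhood the knockout list had unshared regions of its own at chr19:36762529-36762737 and chr19:36785365-36785628.

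With the exception of 2, the unshared window regions were low in fold. In the wild type 9 of the 11 were below the 25th percentile of fold and 5 lay at the genome background rate, and their median pileup was 15 fragments. In the knockout all 16 were below the 25th percentile, with folds from 1.61 to 6.59. Their pileups ran from 14 to 261 fragments, with a median of 32. Elsewhere on the chromosome 26 of 31 unshared wild-type and 87 of 104 unshared knockout regions were also below the 25th percentile. Among wild-type regions above the median fold, 214 of 216 in the windows had a partner and 2 did not, or 0.926%, against 0.243% without one in the whole list. Both of these were in window 5, and 1 of them is the region at the ZNF155 position. Without it 1 of 215 had no partner, or 0.465%. Among knockout regions above the median fold, 0 of 205 lacked a partner, which allows a share of up to 1.46% by a limit of 3 counts and 1.78% by the exact interval, against 0.672% in the whole list. At or below the median fold, 90.9% of wild-type and 83.7% of knockout window regions were shared, against 94.6% and 82.0% elsewhere on the chromosome. In the whole lists these shares were 89.2% and 81.3%, so both window shares lay above them.

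Strength in the 2 genotypes was compared in one-to-one pairs, in which a wild-type and a knockout region overlapped each other and no other region. The windows gave 270 such pairs. The remaining 34 shared wild-type and 17 shared knockout regions were left out of the pairs, because each of these knockout regions spanned several wild-type ones. The fold rank of window regions was slightly lower in the knockout. The median shift of the fold percentile was -1.96 (-2.97 to -0.84) in the windows and -0.10 (-0.46 to 0.14) elsewhere on the chromosome. It was lower in the knockout in 170 of 270 window pairs, or 63.0% (56.9 to 68.7%), against 51.4% (48.1 to 54.7%).

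Larger shifts followed the same order. The fold percentile was lower by 10 or more in 46 window pairs, or 17.0% (12.8 to 22.1%), against 10.6% elsewhere on chromosome 19 and 9.44% of all pairs. It was higher by 10 or more in 17, or 6.30%, against 7.97% and 8.90%. Window 4 held 11 of the 46 among its 32 pairs, and 26 of these 32 ranked lower in the knockout. The median shift in windows 1 to 6 was -1.69, -0.17, -3.40, -4.17, -5.41 and -0.80.

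The −log10 q rank had a median shift of -0.21 in the windows against 1.61 elsewhere on the chromosome. The difference between these, -1.82 percentile points, was close to the -1.86 of the fold rank. The pileup rank moved by 0.83 against 1.97. Window 5 had the lowest median shift of the −log10 q percentile, -9.46, followed by window 4 with -3.80. The other 4 windows lay between -0.35 and 2.93.

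Because the knockout library was deeper, pileups were compared as log2 of knockout over wild type, minus the median of all 16501 pairs, which was 0.89. Scaling to the lowest background rate instead shifts every ratio by -0.32. The median centred ratio was 0.00 in the windows and 0.05 elsewhere on chromosome 19. By window it was 0.03, 0.07, 0.02, -0.12, -0.36 and 0.02. The median pair of windows 1, 2, 3 and 6 thus kept its relative height. The interval of the median was -0.25 to -0.01 for the 32 pairs of window 4. For the 11 pairs of window 5 it was -3.63 to -0.04. The median of window 5 describes no typical region, because its pairs lay either from -0.36 to 0.09 or at -1.35 and lower.

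Ratios of -1 or lower, a relative loss of at least 2-fold, were found in 10 window pairs, or 3.70% (1.79 to 6.71%). The rest of chromosome 19 had 13 of 928, or 1.40%, and all pairs had 1.98%. Of the 10, 5 were among the 11 pairs of window 5, 2 among the 32 of window 4, 3 among the 156 of window 6 and none in windows 1 to 3. Without window 5, which was left out after its values were seen, there were 5 of 259, or 1.93%. Ratios of 1 or higher were found in 7 window pairs, or 2.59%, against 2.50% of all pairs. Scaled to the lowest background rate, 18 window pairs (6.67%) were at -1 or lower and 3 (1.11%) at 1 or higher. With that scaling 3.77% of the other chromosome 19 pairs and 4.81% of all pairs were at -1 or lower, and the 5 of window 5 stayed 5. On the median-centred scale the share of losses outside window 5 was thus close to that of all pairs.

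**Figure D3:**
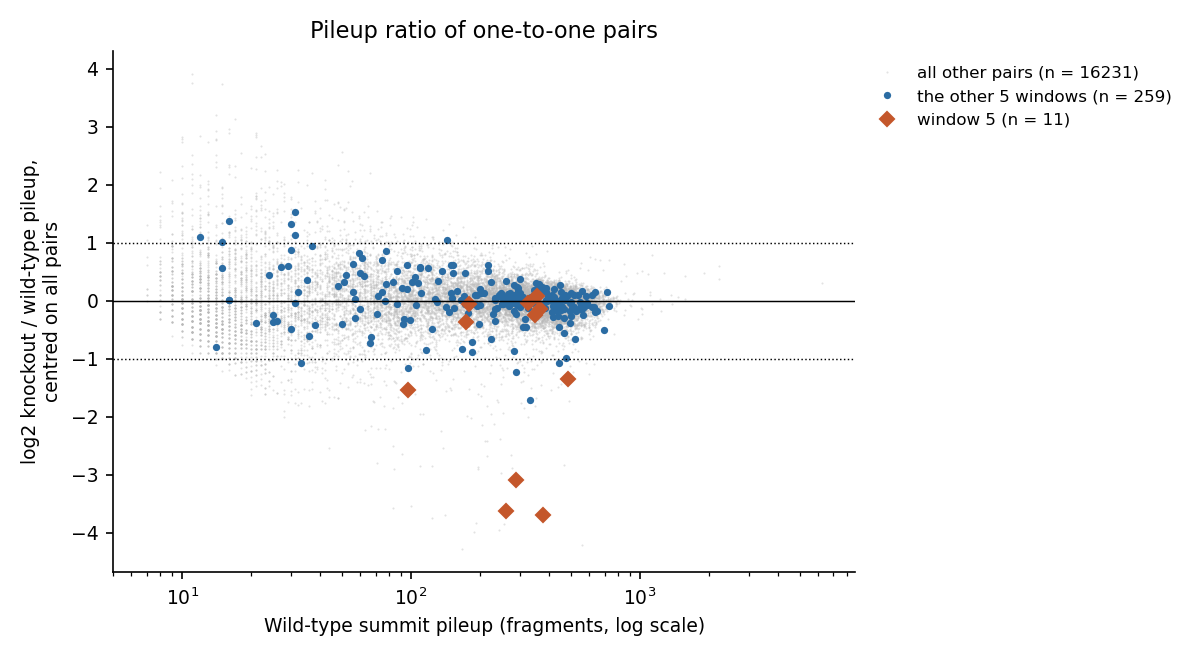
Centred log2 ratio of knockout to wild-type summit pileup (y axis) against the wild-type pileup in fragments (x axis, log scale) for all 16501 one-to-one pairs of the assembled chromosomes, with window 5 (diamonds) and the other 5 windows (large points) marked and dotted lines at -1 and 1. Of the 11 pairs of window 5, 3 lie below -3 at wild-type pileups of 260 to 377.

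The losses outside window 5 were smaller than the largest in it, which had ratios of -3.70, -3.63 and -3.09. At chr19:37263004-37264009 in window 4 the pileup was 330 fragments in wild-type and 188 in knockout cells, a centred ratio of -1.71. This was a larger loss than those of window 5 at -1.54 and -1.35. At chr19:38269502-38270786 in the same window it was 286 and 226, a ratio of -1.23. The 3 pairs of window 6 had ratios from -1.15 to -1.08. The largest loss of these, at -1.15, was chr19:58666123-58666485, with 97 and 81 fragments. The pair of highest pileup, chr19:58038672-58039536, had 442 and 388 fragments, folds of 19.6 and 16.8 and a ratio of -1.08.

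Gains were mostly at weak wild-type regions. In 6 of the 7 the wild-type pileup was 12 to 31 fragments. The largest was at chr19:37742800-37743367 in window 4, with 31 fragments in wild-type and 166 in knockout cells and a ratio of 1.53. The next were chr19:54385190-54385808 in window 6, with 16 and 77 fragments and a ratio of 1.37, and chr19:12098466-12099019 in window 2, with 30 and 139 and a ratio of 1.32. The exception was chr19:36821925-36822638 in window 4, with 143 and 547 fragments, a ratio of 1.04 and a fold of 20.1 in wild-type and 22.7 in knockout cells.

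Window 5 holds the ZNF155 position, and each of its 15 wild-type regions is given here in order along the chromosome. The 3 largest falls in fold percentile among all 270 window pairs were in it, and so were the 3 largest falls in −log10 q percentile. The regions are numbered from 1 to 15.

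The first 3 regions changed little. Region 1, chr19:44331469-44332215, had a pileup of 179 fragments in wild-type and 321 in knockout cells, a centred log2 ratio of -0.05. Region 2, chr19:44438629-44439753, had 347 and 543, a ratio of -0.25. Region 3, chr19:44455322-44455920, had 174 and 252, a ratio of -0.36. All 3 had more fragments in the deeper knockout library.

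Region 4, chr19:44488285-44488919, starts at the position named as the ZNF155 promoter, and that position was chosen because the knockout list has no region there. It was 635 bp wide, with its summit at position 44488413. Its fold of 22.9 was at the 97.0 percentile of the wild-type list, whereas its −log10 q of 85.3 was at the 41.7 percentile and its pileup of 79 fragments at the 31.0 percentile. It was thus a region of modest height over a low background rate of 2.50 fragments. Among the unshared wild-type regions of all assembled chromosomes, 3 had a fold at least as high, itself included. Because the position was chosen for being unshared, with these data known, this rank only describes the region and supports no difference there. The nearest knockout regions ended 32301 bp before it and began 18139 bp after it.

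The knockout signal at region 4 is not given by a list of called regions, and neither is the knockout background rate there. The lowest pileup called at the genome background rate of the knockout was 11 fragments. Among the 4127 knockout regions with a background rate under 5 fragments the median pileup was 26. At the median ratio of all pairs, 79 wild-type fragments correspond to 147 in the knockout. A median of called regions is not a calling limit, and none of these values measures the knockout signal at region 4. Why no region was called there was not tested.

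Region 5, chr19:44506726-44507903, is the next after the ZNF155 position and showed the largest relative loss of the window. Its pileup was 377 fragments in wild-type and 54 in knockout cells, a ratio of -3.70. Its fold was 20.8 and 10.8, or percentiles of 93.8 and 47.2. The knockout region was also the shorter, from 44507059 to 44507660. The knockout thus had fewer fragments here although its library was the deeper.

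The next 3 regions included no fall in pileup. Region 6, chr19:44598147-44599517, had 366 and 616 fragments, a ratio of -0.14. Regions 7 and 8, chr19:44616986-44617309 and chr19:44617538-44618360, had 135 and 353 fragments and lay under a single knockout region of 622 fragments, chr19:44616994-44618377, so they form no one-to-one pair and have no ratio of their own. These regions lie between the losses at regions 5 and 9.

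Region 9, chr19:44645287-44646233, had 97 fragments in wild-type and 62 in knockout cells, a ratio of -1.54. Region 10, chr19:44669222-44669925, had the highest fold of the window, 26.9 in wild-type and 22.9 in knockout cells. Its pileup was 324 and 585 fragments, a ratio of -0.04. A region with a relative loss thus stood beside one without.

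Region 11, chr19:44711650-44712146, had 288 fragments in wild-type and 63 in knockout cells, a ratio of -3.09. Its fold fell from 18.8 to 5.78, percentiles of 89.0 and 20.7. Region 12, chr19:44716652-44717463, had 483 and 353 fragments, a ratio of -1.35. Both were lower in absolute fragments as well as relative to depth. Region 13, chr19:44808413-44809211, had 354 and 699 fragments, a ratio of 0.09, the highest of the window.

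Region 14, chr19:44860247-44861280, had 260 fragments in wild-type and 39 in knockout cells, a ratio of -3.63, with folds of 24.9 and 7.89 and percentiles of 98.4 and 30.5. Region 15, chr19:44905204-44905783, had 82 fragments and a fold of 18.1, at the 86.6 percentile, and no knockout region. These were the last wild-type regions of the window. The knockout list had 1 region without a wild-type partner in the window, chr19:44915330-44915678, with 21 fragments.

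**Figure D4:**
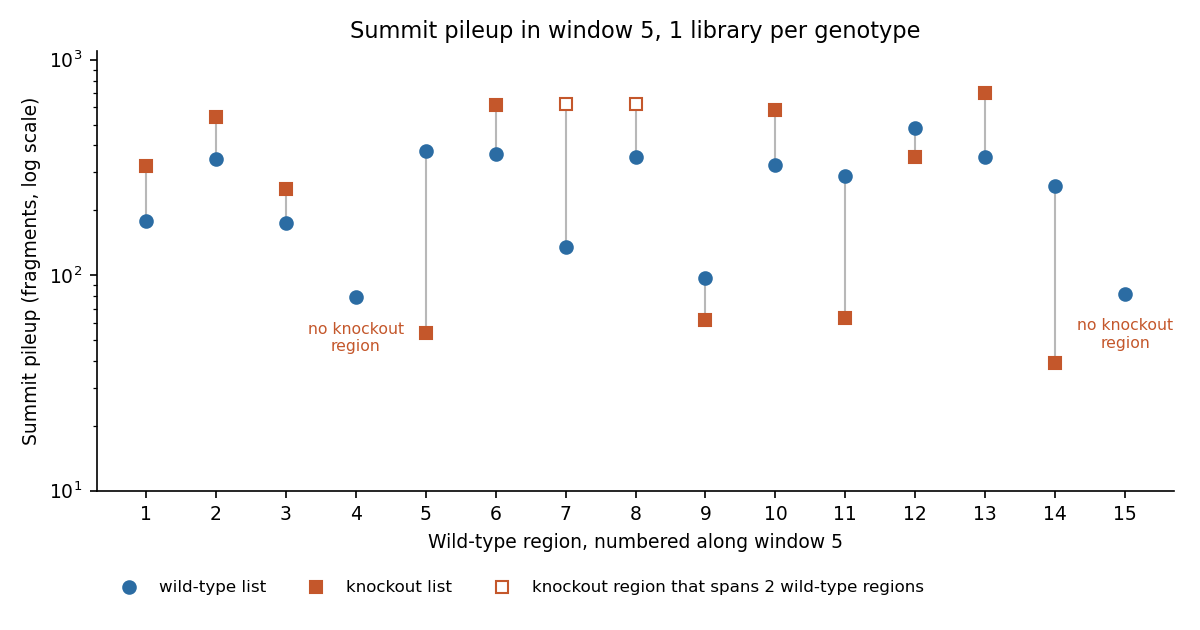
Summit pileup in fragments (y axis, log scale) of the 15 wild-type regions of window 5, numbered along the chromosome, and of the knockout regions that overlap them, with 1 library per genotype and open squares for the knockout region that spans regions 7 and 8. Regions 4 and 15 have no knockout region, and regions 5, 11 and 14 fall from 260 to 377 fragments in the wild type to 39 to 63 in the knockout.

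In all, 7 of the 15 wild-type regions of window 5 had a relative loss of at least 2-fold or no knockout region, as the plot of its pileups shows. The other 6 pairs had ratios from -0.36 to 0.09, so no pair lay between -0.36 and -1.35. Region 4 was named for its missing partner, which leaves 6 of the other 14. In the whole wild-type list 5.53% of regions were unshared, and 1.98% of all pairs had a ratio of -1 or lower. A combined share over all chromosomes was not computed. Regions with and without a loss were interspersed along the window. Among pairs with at least 100 fragments in the wild type, a ratio of -2 or lower was found in 3 of the 10 of window 5 and in none of the other 201 of the windows. Over all assembled chromosomes it was found in 31 of 11250, or 0.276%. The rest of chromosome 19 had 3 of 665.

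Losses of this size were rare in the flanks of window 5. In the 2 Mb before it, 37 pairs had a median ratio of 0.09 and 1 had a ratio of -1 or lower, at -1.11, and 1 of 47 wild-type regions was unshared. In the 2 Mb after it, 66 pairs had a median ratio of 0.01, 1 was at -1.15, and 3 of 78 regions were unshared. How the lower regions divide among the promoters printed above was not tested, because no annotation of the hg19 build was used here.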

How the data were processed

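Both deposited lists have the 10 columns that MACS2 writes. Per the submitters' processing notes, Bowtie2, MACS2, SAMtools 1.12 and deepTools were used with builds GRCh37 and hg19. Their parameters, and whether a control library was used, are not given in the sources used here. The authors' column 7 was taken as a fold, a ratio of summit pileup to local background. The deposited columns 8 and 9 hold −log10 p-values and q-values, and the deposited score column equals 10 times the −log10 q and was not used further. These columns are the authors' own and were used to rank regions within a list, since no scaling between lists is stated. Both libraries were handled alike in the labels' protocols, and total read counts were not used.

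For each region the whole-number pileup and background rate were solved from fold = (pileup + 1)/(rate + 1) and the Poisson tail of the p column, with relative errors of at most 2.67e-05, after tests on simulated data. The knockout library was deeper, which can let weaker and wider regions be called. Regions on assembled chromosomes were used. A region belonged to a window by its summit, was shared at an overlap of at least 1 bp, and formed a pair with exactly 1 partner each way. Shares carry Clopper-Pearson intervals and medians carry order-statistic intervals, both at 95%. With 1 library per genotype no test was made. Promoters came from RefSeq (GRCh38.p14).

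Regions were named by rule: the one at the ZNF155 position with its neighbours, the highest fold and the widest of each window, the 3 largest rises and falls of pairs by fold and −log10 q percentile, and the 5 unshared regions of highest fold per list. The other regions of window 5 and the other pairs with a centred log2 ratio beyond 1 in either direction, and the remaining unshared regions, were named after their values were seen. The windows, the gene list and the comparisons were chosen with earlier results of these data known. Alternatives covered the overlap, the −log10 q minimum, merging, the comparison set, leaving out each window and the ranking column. Values were computed in Python 3.11.15 with scipy 1.17.1, numpy 2.4.6 and pandas 2.3.3, and plotted with matplotlib 3.10.9.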

Additional observations from a re-analysis of the deposited data

Results flagged for a closer look

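The lists also hold regions on a chromosome 19 sequence that has no place in the assembled chromosome and entered no comparison above. The wild-type list had 6 regions there, with folds from 4.01 to 13.3 and pileups from 12 to 40 fragments. The knockout list also had 6, with folds from 3.01 to 15.6 and pileups from 18 to 126 fragments. They are given because they are called regions outside the comparisons above. Whether the sequence belongs to a zinc finger cluster was not tested.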

How the results depend on the processing

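No paired analysis was possible because there was a single library of each genotype, so no replicate was left out either. Over 12 results and 127 alternatives, 108 values kept their direction and moved by less than their counting interval (for counts, by less than 1.5 times), 13 moved further and 6 changed sign. All differences here are windows minus the rest of chromosome 19. The width difference, 85 bp in the wild type and 147 bp in the knockout, became -14 bp and 13 bp against all other autosomes and X, and -92 bp and -38.5 bp with regions within 1 kb merged. The fold percentile difference, 21.8 and 19.1, was 5.71 and 5.57 by pileup. The shared share of the wild type, -0.581 percentage points, became 2.22 against all other autosomes and X, 0.402 without window 4, 0.389 at a reciprocal overlap of 50%, -3.34 without window 6 and -3.64 at or below the median fold. That of the knockout, 4.18, became 6.56 at the reciprocal overlap and was smaller on either side of the median fold, 0.735 above it and 1.69 at or below it. The difference in fold shift, -1.86, became -3.25 without window 6. The difference in −log10 q shift, -1.82, became -0.901 against all other autosomes and X and -2.48 without window 6. The cause of each of these was not tested. The count of pairs at a centred ratio of -1 or lower, 10 in all windows, was 18 when scaled to the background rate (6.67% against 3.77% elsewhere on the chromosome), 24 at a threshold of -0.5 and 5 without window 5, alternatives chosen after seeing the data. The 5 such pairs of window 5 stayed within 1.5 times of that count. Depth limits the weak regions: below about the lowest called pileups, 7 fragments in wild-type and 11 in knockout cells, a region could not be listed.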
